A study of Homo sapiens with 2 samples.

Results

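The ABC transporters, the ATP-binding cassette proteins, were described as the genes whose symbol is ABC followed by a subfamily letter from A to G and a number. The array carried 96 probe sets that named 42 such genes, of 19775 genes for which some probe set carried no second symbol. The rule that picks the members uses their names and no measured value, and TAP1 and TAP2, which belong to the same superfamily under other names, were kept apart from them. The cells were OECM1, an established head and neck cancer line grown in RPMI with fetal bovine serum. One culture was stably transfected with pmCherry-let7i, a vector carrying the microRNA let-7i and the fluorescent protein mCherry. The control culture carried the pmR-mCherry empty vector. Both vectors are named for the reporter, whose expression was not measured here. The sources used here do not say whether each line was 1 clone or a mixed population, nor which promoter drove let-7i. Each group had 1 array. Every difference below therefore compares 2 arrays, without replicates and without a p-value.

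ABC proteins bind and split ATP with a conserved cassette, and most of them use the energy to move a substrate across a membrane. Subfamily A moves lipids, B holds the classical multidrug pump and several organelle transporters, C holds the multidrug resistance-associated pumps and channel regulators, D serves mostly peroxisomes, and G moves sterols and drugs. Subfamilies E and F lack membrane-spanning parts and act on ribosomes and translation. In carcinomas the family is best known for drug efflux, and ABCG2 in particular is used to mark dye-excluding cells with stem-like properties.

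The guide strand of let-7i is shown first because it is the molecule by which the vectors of the cultures differ, going by their labels. It lies at chr12:62603691-62603712 on the plus strand of GRCh38.p14 (RefSeq), and capitals mark the seed, bases 2 to 8, with which it pairs to its targets.
hsa-let-7i-5p: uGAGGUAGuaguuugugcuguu
The array does not report the mature microRNA, so the labels could not be checked by its level. Whether other differences between the cultures contributed to the ratios below was not tested.

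The 3 ABC genes past 2-fold, ABCA1, ABCC4 and ABCG2, are described next by the sequence before their start sites. The 250 bases upstream of the annotated start were taken from RefSeq (GRCh38.p14) and searched on both strands for 5 motifs. These were the E-box CACGTG, the GC box GGGCGG, the TATA box TATAAA, the antioxidant element TGACNNNGC, and a nuclear receptor repeat of the DR4 type (GGTNA and GGTCA with 5 bases between them). Capitals mark every match, and all 3 stretches are on the minus strand and printed 5′ to 3′ in the direction of transcription. ABCA1 is at chr9:104928156-104928405 and ABCC4 at chr13:95301452-95301701. ABCG2 has 5 annotated starts, 2 of them with a match, and the more upstream of those 2 is shown, at chr4:88158910-88159159. The stretches before these 2 starts overlap and hold the same matches, 1 E-box and 2 GC boxes.
ABCA1: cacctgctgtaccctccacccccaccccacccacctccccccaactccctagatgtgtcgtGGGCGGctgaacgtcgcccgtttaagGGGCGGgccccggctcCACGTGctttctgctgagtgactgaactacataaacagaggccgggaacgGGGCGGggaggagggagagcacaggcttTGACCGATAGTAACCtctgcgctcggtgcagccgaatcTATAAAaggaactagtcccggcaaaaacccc
ABCC4: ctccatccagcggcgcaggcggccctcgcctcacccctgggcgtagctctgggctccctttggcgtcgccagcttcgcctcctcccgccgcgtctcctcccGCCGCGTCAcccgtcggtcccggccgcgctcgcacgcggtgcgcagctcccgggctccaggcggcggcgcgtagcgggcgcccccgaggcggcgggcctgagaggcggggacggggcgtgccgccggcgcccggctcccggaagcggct
ABCG2: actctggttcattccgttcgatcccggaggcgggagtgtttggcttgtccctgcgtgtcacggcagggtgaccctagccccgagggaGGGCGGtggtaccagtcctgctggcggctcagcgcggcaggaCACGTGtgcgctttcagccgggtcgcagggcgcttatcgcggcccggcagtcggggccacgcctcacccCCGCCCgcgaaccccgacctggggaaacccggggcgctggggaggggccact

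The ABCA1 stretch held 1 DR4 match, from 69 to 55 bases before the start, with 1 E-box, 3 GC boxes and a TATA box. A DR4 match was present upstream of 74 of 27305 genes in the promoter table (0.271%), and among the 19 ABC genes above the floor that have an entry, upstream of ABCA1 alone. Elements of this type are bound by the oxysterol receptors LXR together with RXR, which induce ABCA1 when cells hold excess cholesterol. The DR4 pattern searched here left 1 base open, where the ABCA1 site reads T (GGTTA on the other strand). The ABCA1 match may thus have been fixed by how the pattern was written, and nothing is drawn from its rarity. The E-box, found upstream of ABCA1 and ABCG2, was present in 6 of these 19 genes and in 7.73% of all genes. GC boxes were present in 16 of the 19 and in 46.2% of all genes. The single match of ABCC4 was to the antioxidant element, which 7 of the 19 and 13.2% of all genes held. The 3 genes past 2-fold thus had no motif of the 5 in common. The 19 were kept for reaching the floor and the 27305 were not, so their shares are of unlike sets. Of the 33 ABC genes with an entry at any signal, 8 held the E-box, 21 a GC box and 9 the antioxidant element. The matches describe letters only, and no binding was measured.

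Of the 42 ABC genes, 23 (54.8%) reached the floor on at least 1 array, against 62.1% of all genes. The floor is the median signal of each array, 88.0 for the empty vector culture and 79.5 for the let-7i culture, and stands in for detection calls. A gene was called at a size of 2-fold, and the log2 ratio is let-7i over empty vector throughout. ABCA1 and ABCC4 were at least 2-fold higher with let-7i and ABCG2 at least 2-fold lower. The background over all 12284 genes that reached it was 1.06% called higher, 1.38% called lower and 2.43% called in either direction. The ABC calls, 3 of 23, are a larger share than this background, but they are 3 genes and the difference has no test. The median log2 ratio of the 23 was -0.07, against -0.01 for all genes. Of the 23, 19 lay within 0.5 of 0 on the log2 scale (82.6%), as did 86.0% of all genes. The family as a whole was thus close to the centre, with 9 members higher, 13 lower and 1 whose bound gives no direction.

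**Figure D1:**
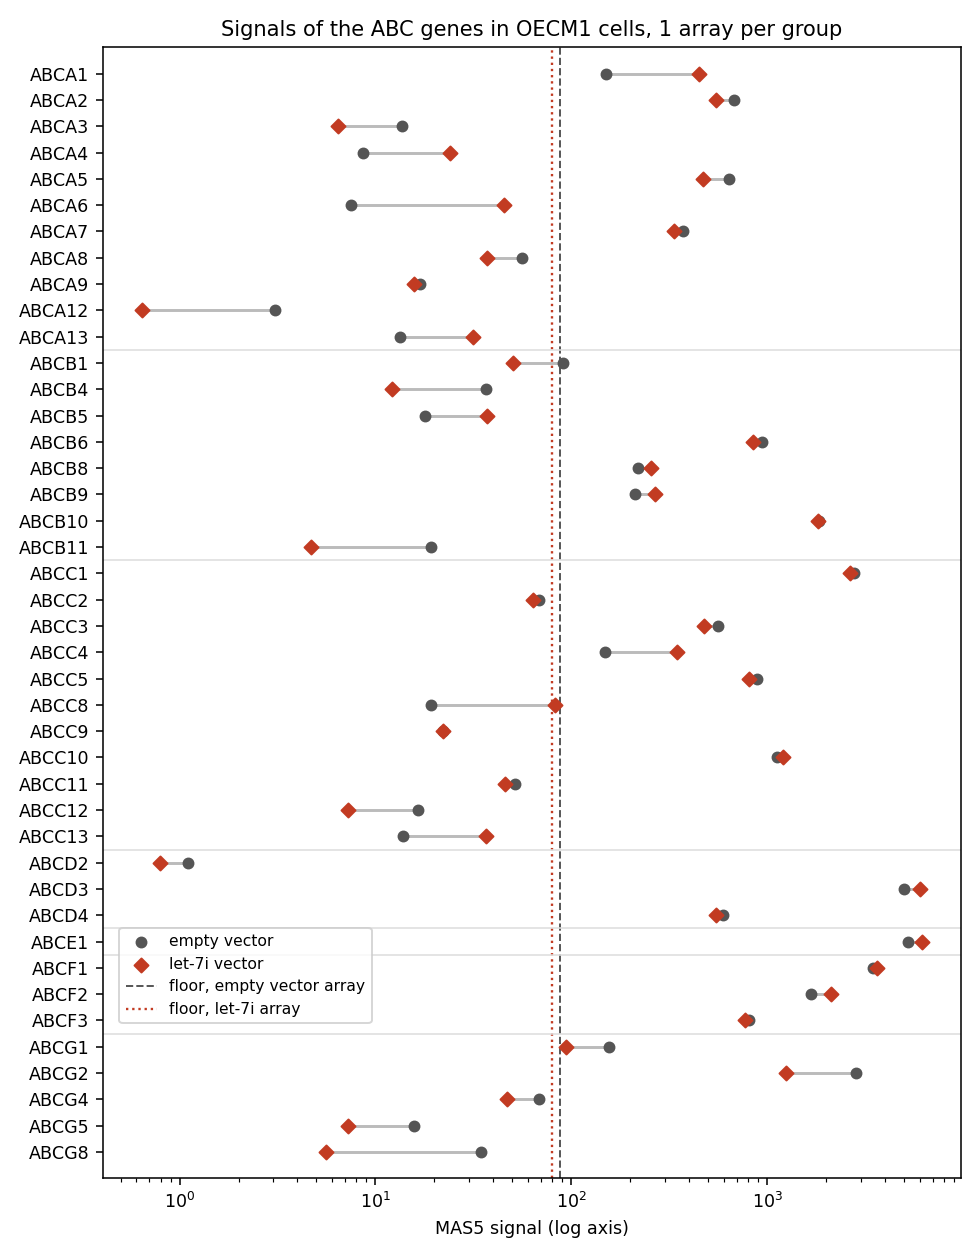
MAS5 signal on a log axis for each of the 42 ABC genes, in its brightest probe set, with the empty vector (grey circles) and let-7i (red diamonds), 1 array each; dashed and dotted lines are the floors of 88.0 and 79.5. Only the distance within a row can be read, since probe sets differ in how they bind; ABCA1 and ABCC4 lie further right and ABCG2 further left with let-7i, and 19 genes lie left of both floors.

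ABCA1 exports cholesterol and phospholipid from the plasma membrane to apolipoprotein A-I and so starts the formation of high-density lipoprotein. In its brightest probe set the empty vector culture had a signal of 150.4 and the let-7i culture 449.6, which is 2.98-fold higher (log2 ratio of 1.58). A second probe set gave 120.4 and 380.3, a 3.15-fold higher level (1.66), so the difference between these probe sets was 0.08. Its other 2 probe sets were below the floor on both arrays. Over 5807 genes with 2 measured probe sets, both passed 2-fold upward in 23 (0.396%), and ABCA1 was the ABC gene among them. ABCA1 had the 27th highest log2 ratio of the 11140 genes measured on both arrays. Both its empty vector signals were close to the floor, and once the floor was raised to the 65th percentile (229 and 214) the ratio became a lower bound of 0.96 and the call was lost.

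The other lipid transporters of subfamily A did not share this size or direction. ABCA2, a lysosomal lipid transporter, had 676 and 549, empty vector first here and in all pairs of signals below (log2 ratio of -0.30), and its second probe set gave -0.65. ABCA5, found in lysosomes and late endosomes, had 637 and 472 (-0.44). ABCA7, a phospholipid transporter that is close to ABCA1 in sequence, had 372 and 336 (-0.15). All 3 were on the lower side with let-7i, by less than 2-fold. The median of the 4 measured members of subfamily A was -0.23. The other 7 were below the floor on both arrays. They were ABCA3 of lung surfactant, ABCA4 of the retina, ABCA12 of the epidermal lipid barrier, ABCA13, and ABCA6, ABCA8 and ABCA9. ABCA8, ABCA9, ABCA6, ABCA10 and ABCA5 are consecutive protein-coding genes on chromosome 17. Of this run ABCA5 was above the floor, ABCA6, ABCA8 and ABCA9 were not, and ABCA10 had no probe set named for it alone and was not analysed here.

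ABCC4, also called MRP4, exports cyclic nucleotides, prostaglandins and nucleotide-like drugs. Its brightest probe set had signals of 148 and 348, a 2.34-fold higher level with let-7i (log2 ratio of 1.23). Its other probe sets above the floor were dim with the empty vector and gave bounds, at least 2.31-fold higher (63.6 and 204) and at least 1.51-fold higher (80.9 and 133). The remaining probe set was below the floor on both arrays. All 3 measured probe sets of ABCC4 were thus higher with let-7i. Its ratio ranked 54th from the top of the 11140 genes. With the higher floor its log2 ratio was a bound of 0.59, and the call was lost.

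Of the other efflux pumps of subfamily C, ABCC1, ABCC5 and ABCC10 had log2 ratios between -0.37 and 0.27 in the probe sets above the floor. ABCC1, the multidrug resistance-associated protein that exports glutathione conjugates, had signals of 2776 and 2659 in its brightest probe set (-0.07). ABCC5, an exporter of nucleotide analogues, had 885 and 807 (-0.14). ABCC10, a pump with a broad drug range, had 1117 and 1207 (0.11). These differences were of the size by which probe sets of the same gene disagreed.

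ABCC3, an exporter of glucuronide conjugates, gave no single answer. Its brightest probe set had signals of 560 and 475 (log2 ratio of -0.24), and 2 others measured on both arrays gave 0.17 and -0.16. Of the other 2, the first was at least 3.05-fold lower (242 and 74.6) and the second at least 1.60-fold higher (54.9 and 141). The gene was not called. ABCC8, the sulfonylurea receptor of the KATP channel, had 19.3 and 82.9, just above the floor with let-7i, and its bound gives no direction. The related ABCC9 was below the floor, as were KCNJ8 and KCNJ11, the pore subunits both receptors need. ABCC2, the canalicular conjugate pump, ABCC11, ABCC12 and ABCC13, which RefSeq lists as a transcribed pseudogene, were also below it. The median of the 6 measured members of subfamily C was -0.08.

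**Figure D2:**
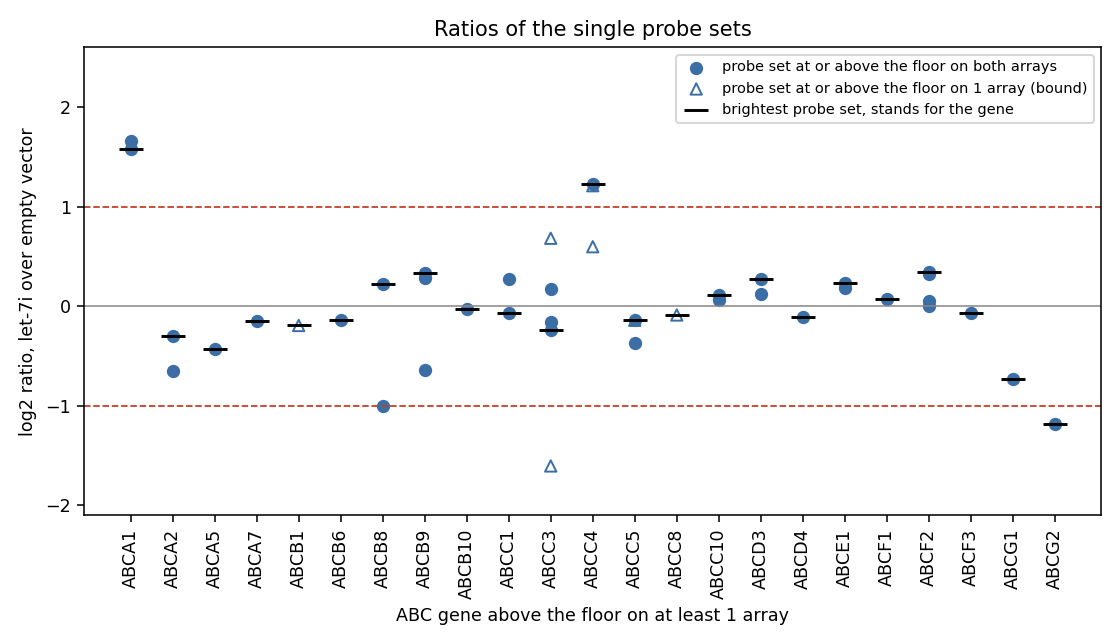
Log2 ratio of let-7i over empty vector (vertical axis) for each probe set of the 23 ABC genes that reached the floor; filled circles were at or above the floor on both arrays, open triangles on 1 array and are bounds, black bars mark the probe set that stands for the gene, and dashed lines mark 2-fold. Both filled points of ABCA1 lie above the upper line, while the points of ABCC3 and ABCB8 spread over more than a 2-fold range.

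ABCG2, the breast cancer resistance protein, is an efflux pump for urate, porphyrins and many drugs. The 1 probe set named for it read 2833 in the empty vector culture and 1251 in the let-7i culture, which is 2.27-fold lower (log2 ratio of -1.18). It was the 64th lowest ratio of the 11140 genes. Both signals were far above the floors, and the call held with the raised floor. No second probe set checks it. RNA was taken from whole cultures, so fewer cells with the transcript and less of it per cell cannot be told apart.

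ABCG1, which moves sterols to lipoproteins and is, like ABCA1, a classical LXR target, was on the other side from ABCA1. Its signals were 156 and 94.0, a log2 ratio of -0.74, near the floor and short of 2-fold, and its other 3 probe sets were below the floor on both arrays. ABCG4, a sterol transporter of brain, and ABCG5 and ABCG8, the neighbouring genes on chromosome 2 whose products pair to excrete plant sterols, were below the floor. The 2 measured members of subfamily G were both lower, with a median of -0.96.

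The spread of a single probe set, from the disagreement between the 2 brightest probe sets of 5807 genes, had an SD of 0.25 (log2 scale). It was 0.34 in the dimmest 25% of these genes, with mean signals from 96.6 to 403, ABCA1 among them. It was 0.15 in the brightest 25%, with mean signals above 1644. By mean signal ABCC4 and ABCG1 fall in the dim range and ABCG2 in the bright one. Each of these 3 had 1 probe set measured on both arrays, so none is among the 5807 genes and no spread was estimated for them. These values describe the array and are no test of the genes, which are named at 2-fold by the size of their ratios. This spread is the disagreement between probe sets on the same 2 arrays, whatever its source, and variation between cultures was not measured.

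**Figure D3:**
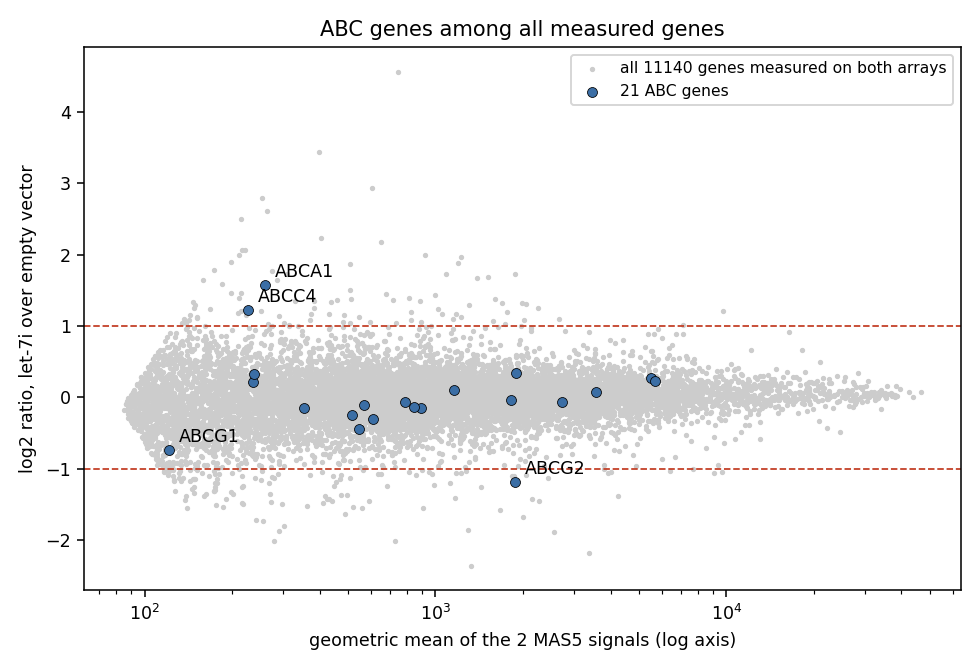
Log2 ratio of let-7i over empty vector against the geometric mean of both MAS5 signals (log axis) for the 11140 genes measured on both arrays (grey) and the 21 ABC genes among them (blue); dashed lines mark 2-fold. ABCA1 (1.58) and ABCC4 (1.23) lie above the upper line at dim signals, ABCG2 (-1.18) below the lower line at a bright one, and ABCG1 (-0.74) near the dim edge.

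Subfamily B had no member past 2-fold in its brightest probe set. ABCB1, P-glycoprotein and the classical multidrug pump, reached the floor on the empty vector array alone, with 90.8 and 50.2, which bounds it at no less than 1.15-fold lower. Its neighbour ABCB4, a phospholipid exporter of bile, ABCB5 and the bile salt pump ABCB11 were below the floor. The organelle transporters were measured throughout. ABCB6, a porphyrin transporter, had 936 and 850 (log2 ratio of -0.14), and ABCB10, a mitochondrial protein needed for heme synthesis, had 1844 and 1807 (-0.03).

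ABCB8 and ABCB9 depended on the probe set. ABCB8, a mitochondrial transporter linked to iron export, had 218 and 255 in its brightest probe set (0.22), but 241 and 120 in the second (-1.01), a disagreement of 1.22, which is 2.57 times the SD of such differences among genes as dim. This was the widest among the 11 ABC genes with 2 probe sets measured on both arrays, and the other 10 differed by 0.05 to 0.41. The pairs had the same sign in 8 of the 11, against 64.2% of all pairs. ABCB9, a lysosomal peptide transporter related to TAP, had 212 and 267 (0.33), with 0.28 and -0.64 in its other probe sets. The median of the 5 measured members of subfamily B was -0.03. TAP1 and TAP2, which load peptides for MHC class I, had 1803 and 2148 (0.25) and 2352 and 2462 (0.06). CFTR, the chloride channel of subfamily C, was below the floor.

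Subfamilies D, E and F showed small ratios throughout. ABCD3, which brings fatty and bile acid precursors into peroxisomes, had 5005 and 6056 (log2 ratio of 0.27), and ABCD4, which serves lysosomal vitamin B12 export, had 592 and 549 (-0.11). ABCD2 was below the floor. ABCE1, which splits ribosomes after termination, had 5235 and 6180 (0.24), and its second probe set gave 0.19. ABCF1, a translation initiation factor, had 3463 and 3653 (0.07) and ABCF3 had 805 and 770.4 (-0.07). ABCF2 had 1673 and 2126 (0.34), and its 4 measured probe sets ran from 0.003 to 0.34. No member of these 3 subfamilies was past 2-fold in any measured probe set. The medians were 0.08 for the 2 measured genes of D and 0.07 for the 3 of F.

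Grouped by role, the 7 measured drug and conjugate pumps (ABCB1, ABCC1, ABCC3, ABCC4, ABCC5, ABCC10 and ABCG2) had a median of -0.14, with 2 higher and 5 lower. Of these, 1 was called in each direction, ABCC4 and ABCG2. The 5 measured cholesterol and phospholipid transporters had a median of -0.30, with ABCA1 higher and ABCA2, ABCA5, ABCA7 and ABCG1 lower. Without probe sets shared between transcripts 2 genes of this role remain, ABCA1 and ABCA5, and the median is 0.58. The 3 mitochondrial transporters had a median of -0.03 (0.05 without shared probe sets). The 3 of peroxisomes and lysosomes had 0.27, but 0.01 with the mean over each gene's probe sets and -0.17 without shared ones, so their direction depends on the probe sets. The 4 soluble translation factors had 0.15. For scale, the SLC solute carriers, the other large family of membrane transporters, had 193 of 316 genes above the floor, a median of -0.01, none called higher and 4 called lower (2.07% in all).

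Among transcription factors that control ABC genes, 15 of the 16 on the array were above the floor, 6 higher and 9 lower, with a median of -0.08. SREBF2, the activator of cholesterol synthesis, read 801 and 399 in its brightest probe set, 2.01-fold lower, but its others gave -0.17 and -0.10, the mean over its probe sets was -0.41, and its call was lost after lowess centring (-0.99). NR1H3, which encodes LXR alpha, had 137 and 80.6 (-0.77) at the edge of the floor, and RXRA had 3720 and 2582 (-0.53), with -0.16 in a second probe set. RXRB had 997 and 946 (-0.08), with probe sets from -0.08 to 0.42. NR1H2, which encodes LXR beta, was not analysed here. PPARA was bounded at no less than 1.43-fold lower (113 and 78.9).

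Among 16 genes of sterol efflux and peroxisome import, none passed 2-fold, 8 were higher and 8 lower, and the median was 0.003. The largest ratios were those of HSD17B4, an enzyme of peroxisomal beta-oxidation (-0.41), SOAT1, which esterifies cholesterol (0.40), and LCAT, a plasma cholesterol acyltransferase (a bound of 0.40). The 11 genes of mitochondrial iron-sulfur cluster and heme synthesis had a median of 0.10. SLC25A28, a mitochondrial iron carrier, was at -0.43, GLRX5, a cluster carrier, at -0.41 and ALAS1, the first enzyme of heme synthesis, at 0.37. The 10 genes of ribosome recycling and initiation, partners of ABCE1 and ABCF1, had a median of 0.11, with EIF2AK4, a kinase that senses amino acid shortage, at 0.37, EIF3J at 0.29 and the release factor ETF1 at 0.25. None of these genes passed 2-fold either. Of all genes 2.43% did, so lists this short can hold none without differing from all genes.

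A list of drug conjugation enzymes and other drug resistance genes had 13 members above the floor, and none passed 2-fold, as did 2.43% of all genes. Of these 10 had ratios below 0 and 3 above, against 6122 and 5984 of all genes, and the median was -0.34 against -0.01. The highest was MVP, the major vault protein (0.43), named after its values were seen. UGT1A6, a glucuronosyltransferase whose last exons are shared with related UGT1A genes, had 634 and 385 (-0.72). NAT1, an arylamine acetyltransferase, had 1982 and 1318 (-0.59), and GSTM3, a glutathione transferase, had 128 and 90.0 (-0.51) near the floor. Uptake carriers of organic ions and nucleosides were mixed, with 6 higher and 4 lower of 10 and a median of 0.10. SLCO4A1, an organic anion carrier, had 867 and 1524 (0.81), SLCO1B3 had 174 and 274 (0.65), and the nucleoside carrier SLC29A2 had 125 and 81.3 (-0.62), near the floor.

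**Figure D4:**
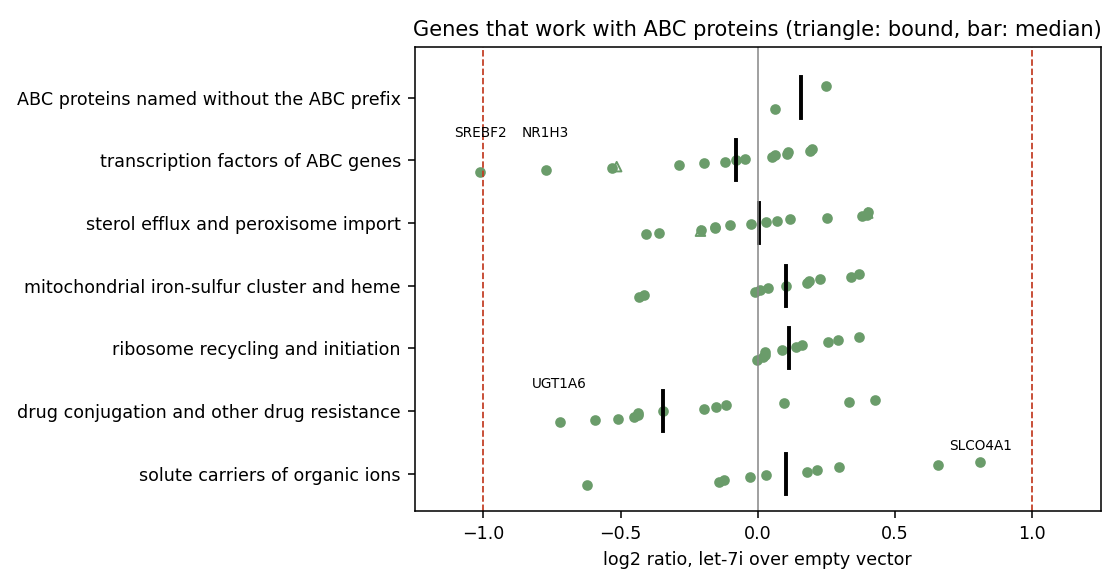
Log2 ratio of let-7i over empty vector (horizontal axis) for genes that work with ABC proteins, by list; each point is a gene that reached the floor, triangles are bounds, bars are list medians and dashed lines mark 2-fold. SREBF2 alone reaches a line, at -1.01, and the drug conjugation list has the lowest median, -0.34.

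Of the epithelial markers checked, 4 of 7 on the array were above the floor (CDH1, EPCAM, SFN and ITGB4), with log2 ratios from -0.71 to 0.02, while KRT5, KRT14 and DSG3 were below it. Above the floor were also 2 of 7 fibroblast markers (COL1A1 at 0.26 and DCN at 0.98), 3 of 5 leukocyte markers (CD3E at -0.94, ITGAM at 0.27 and CD79A at -0.13), 1 of 5 endothelial markers (PECAM1 at 0.22) and 3 of 5 hepatocyte markers. Of the last, CYP3A4 was at 0.65, APOA1 had a bound of -0.21 and TTR a bound that gives no direction. The leukocyte marker PTPRC, the endothelial markers CDH5 and VWF and the hepatocyte marker ALB were below it. Of all genes 62.1% reached the floor, so these shares do not show which cell types were present. ITGAM (90.5 and 109), CD3E (173 and 90.4) and APOA1 (91.6 and 21.2) each had a signal near or below the floor. The part of the markers in the ABC differences was not tested.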

How the data were processed

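The authors deposited 1-colour MAS5 signal intensities on a linear scale, 1 value per probe set and array, per the submitters' processing notes, in a version the sources used here do not name. The trimmed mean (2% at each end) was 500.1 on both arrays, as scaling to a common mean gives, and total RNA per cell is lost by it. Of 54675 probe sets, 41097 carried 1 gene symbol in the platform annotation and were used, and 2 with an ABC symbol beside another were left out. All 42 ABC symbols matched RefSeq (GRCh38.p14) by Entrez ID. Each gene's brightest probe set (by mean log2 signal) stood for it. Signals below the floor were raised to it, which gives a bound, and no ratio was formed where both were below. Log2 ratios were centred on their median over genes that reached the floor on both arrays (0.0036). All ABC genes above the floor were named, and of each partner list those past 2-fold and up to 3 others with the largest ratios. RXRB and MVP were named outside this rule, as were NR1H2, CFTR, KCNJ8 and KCNJ11, which have no ratio. The rule for the members uses gene names alone, but the family and the lists were picked with earlier results of these data known. With 1 array per group there was no test, and the number of arrays limits the precision. The procedure was tested on simulated data in which all genes had the same noise, so the wider spread of dim genes was not covered. Software was pandas 2.3.3 and NumPy 2.4.6 under Python 3.11.15, with Matplotlib 3.10.9 for plots and statsmodels 0.14.6 for lowess.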

Additional observations from a re-analysis of the deposited data

How the results depend on the processing

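Tried were no centring, lowess centring and quantile normalization, a lower floor (25th percentile) and a higher one (65th), averaging a gene's probe sets, leaving out those shared between transcripts (_s_at and _x_at), and calls at 1.5-fold or 3-fold. ABCA1 and ABCC4 higher and ABCG2 lower were the ABC genes called under the first 3 and under both changes of probe sets. With the lower floor 4 were called higher, ABCA6 and ABCC8 being the additions, where 10.3% of all genes were called. With the higher floor 0 were called higher and ABCG2 stayed lower, and 1.37% of all genes were called. At 1.5-fold 2 were called lower, ABCG1 being added, and at 3-fold 0 were called higher and 0 lower. The median of subfamily A was -0.0024 with the lower floor and 0.58 without the shared probe sets, which leave 2 genes, that of subfamily C was 0.32 without them, and that of subfamily G was -1.19 with the higher floor, which leaves ABCG2 alone. Across settings the log2 ratio of ABCA1 ran from 0.96 to 1.65, of ABCC4 from 0.59 to 1.30 and of ABCG2 from -1.20 to -1.16. The call of SREBF2 was lost under 5 of the 7 settings. No paired analysis was possible because each group has 1 array.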
